A study of Caenorhabditis elegans with 31 samples.

Results

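The metallothionein genes of *C. elegans*, mtl-1 and mtl-2, were followed through 31 single-nucleus RNA libraries. Members were taken by gene name, which gave 2 of the 46904 features in the deposited tables. Metallothioneins are small, cysteine-rich proteins that bind zinc, copper and cadmium through their thiol groups. In *C. elegans*, mtl-1 is known for activity in the pharynx and in the intestine, and mtl-2 for induction by cadmium and zinc in the intestine. The intestinal GATA factor ELT-2 acts on both genes, and mtl-1 is a classical target of the FOXO factor DAF-16 under insulin signalling. On the WBcel235 annotation, mtl-1 (WBGene00003473) lies on the minus strand of chromosome V at 6691371 to 6691863, with 2 exons and 373 exon bases. The gene mtl-2 (WBGene00003474) lies on the same strand of chromosome V at 14018270 to 14018673, with 2 exons and 347 exon bases. No other annotated gene overlaps either of them.

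All libraries came from whole adults of strain JK560, fog-1(q253) I, which forms a germline but no fertilized embryos, so no wild-type worms are in the comparison. Each library was made from a pellet of many pooled worms, raised on OP50 bacteria and moved to a higher temperature as L1 larvae. Nuclei were freed by Dounce homogenization, and the labels differ on how long the worms were kept at that temperature. The libraries fell into 8 groups. The lines labelled 0.05% ethanol had 5 F1 libraries (2 in batch 2, 3 in batch 5) and 5 F3 libraries (2 in batch 2, 3 in batch 4). The lines labelled 0.5% ethanol had 3 F1 libraries in batch 5 and 3 F3 libraries in batch 4. The water lines had 5 F1 and 5 F3 libraries, spread over batches like the 0.05% lines. Untreated P0 worms were measured with sorted nuclei in 1 library (batch 1) and with unsorted nuclei in 4 (1 in batch 1, 3 in batch 3). The batches are those in the sample titles. Nothing says that replicates were separate cultures, so p-values measure the spread between these libraries, which may be technical.

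Libraries held 1218248 to 25500166 UMIs (unique molecule tags, each counted as 1 RNA copy) in 1116 to 4850 nuclei. Of 85180 nuclei, 3824 (4.49%) had a barcode found in another library of the same batch, with at most 233 shared by a pair. The 3 libraries numbered 2 in batch 5 stood apart: they held 1218248 to 1439256 UMIs, and the ribosomal RNA gene rrn-3.1 took 10.1% to 13.6% of these. The other 6 libraries of batch 5 held 5586445 to 9257976 UMIs, of which rrn-3.1 took 0.902% to 4.39%. The labelled tissue is the whole worm, and intestine, muscle, germline and neuron markers each named at least 1 cluster of nuclei. Per library, mtl-1 had 217 to 5786 UMIs and mtl-2 had 73 to 5456 UMIs.

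The intestine-like nuclei had the highest level of both genes among the named classes. There mtl-1 averaged 714 ± 590 CPM (UMI counts scaled to a common total of the class) and mtl-2 averaged 368 ± 151 CPM (SD, n = 31 libraries). In body wall muscle-like nuclei of the same libraries, mtl-1 averaged 257 ± 213 CPM and mtl-2 averaged 153 ± 67.8 CPM. Within a library, intestine-like nuclei exceeded body wall muscle-like nuclei 2.74-fold for mtl-1 and 2.53-fold for mtl-2, with both higher in 31 of 31 libraries. Intestine-like nuclei were 5.70% of all clustered nuclei, and held 16% of the mtl-1 UMIs and 13.7% of the mtl-2 UMIs. Clusters were formed and named with these nuclei, so the class levels are a description and carry no test.

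Most of the metallothionein UMIs therefore lay outside the nuclei called intestine-like. Yolk protein mRNA (vit-2, vit-5 and vit-6), which adult hermaphrodites make in the intestine, showed the same spread. It averaged 99195 CPM in intestine-like nuclei and 30474 CPM in body wall muscle-like nuclei, a 3.21-fold difference within libraries, with the intestine-like value higher in 31 of 31 libraries. Counted per 1000 yolk UMIs, mtl-1 averaged 6.98 in intestine-like nuclei, 8.56 in body wall muscle-like nuclei and 8.83 in germline-like nuclei. For mtl-2 the same counts were 4.04, 5.13 and 5.58 per 1000 yolk UMIs. Within libraries, the intestine-like count per yolk UMI was 0.875 times that of body wall muscle-like nuclei for mtl-1, higher in 8 of 31 libraries. It was 0.827 times for mtl-2, higher in 5 of 31 libraries. Free RNA gives UMIs in nuclei that do not transcribe a gene, and its part in the levels outside the intestine-like nuclei was not tested.

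The other named classes followed below. For mtl-1, mean levels ran in the order body wall muscle-like, pharyngeal muscle-like (194 ± 170 CPM, n = 31), neuron-like (185 ± 157, n = 31) and germline-like (184 ± 125, n = 31). Then came gonadal sheath-like (172 ± 167 CPM, n = 28), spermatheca-like (154 ± 196, n = 16), epidermis-like (115 ± 43.9, n = 13) and coelomocyte-like nuclei (112 ± 103, n = 18). Among neighbours in this order, only the step below intestine-like nuclei and the step from epidermis-like to coelomocyte-like nuclei exceeded 1 SD of the differences within libraries. The posterior pharynx is a known site of mtl-1 activity, and the pharyngeal muscle-like level was 0.716 times the body wall muscle-like one and was higher in 6 of 31 libraries. That class holds pharyngeal muscle and does not resolve the posterior bulb.

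For mtl-2 the order was different. Epidermis-like nuclei came after intestine-like nuclei with 181 ± 51.9 CPM (n = 13), followed by body wall muscle-like (153 ± 67.8, n = 31), coelomocyte-like (148 ± 88.9, n = 18) and gonadal sheath-like nuclei (134 ± 78.2, n = 28). Germline-like (128 ± 63.8 CPM, n = 31), neuron-like (120 ± 56.7, n = 31), pharyngeal muscle-like (107 ± 52.9, n = 31) and spermatheca-like nuclei (90.1 ± 84.6, n = 16) were lowest. Here only the step below intestine-like nuclei exceeded 1 SD of the differences within libraries. The means rest on different libraries, and within the 13 libraries that have both classes, the epidermis-like mtl-2 level was 0.918 times the body wall muscle-like one and higher in 4. Yolk mRNA was 0.602 times the body wall muscle-like level there. Per 1000 yolk UMIs, epidermis-like nuclei thus carried 10.8 mtl-2 UMIs, 1.46 times the body wall muscle-like count and higher in 11 of 13 libraries. Coelomocytes, scavenger cells of the body cavity, carried 4.06 mtl-1 UMIs per 1000 yolk UMIs, 0.683 times the body wall muscle-like count and higher in 2 of 18 libraries. An unnamed cluster of 264 nuclei, which reached 20 nuclei in 4 libraries, had 268 ± 24.7 CPM of mtl-2 and 194 ± 58.6 CPM of mtl-1.

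**Figure D1:**
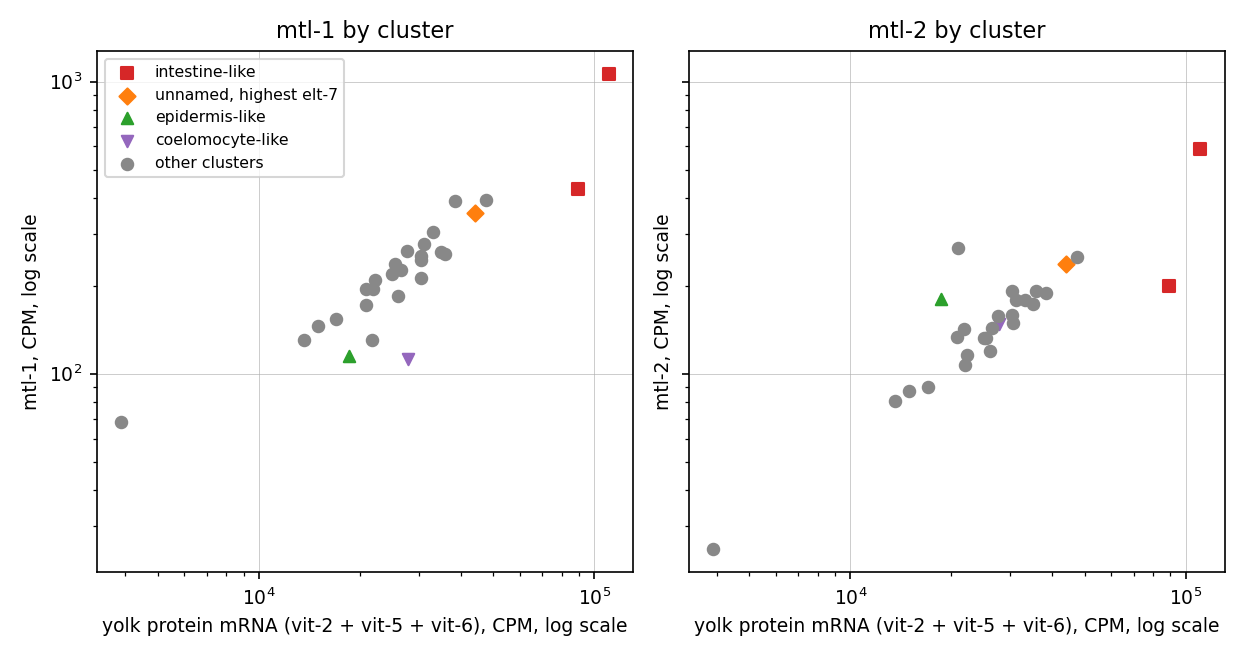
Mean CPM of mtl-1 (left) and mtl-2 (right) in each of 28 clusters against the mean CPM of yolk protein mRNA, both on log scales; points are means over libraries with at least 20 nuclei of the cluster. Most clusters lie along one rising line, the 2 intestine-like clusters lie at the top right with 1058 and 428 CPM of mtl-1, and epidermis-like nuclei (181 CPM) and a small unnamed cluster (268 CPM) lie above the line for mtl-2.

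The 2 intestine-like clusters differed from each other. The first held 2642 nuclei with F14D2.19 and drd-5 among its leading genes, and the second held 2089 nuclei led by the lectin gene clec-160 and the lysozyme gene lys-7. In the first cluster, mtl-1 averaged 1058 ± 961 CPM and mtl-2 averaged 588 ± 288 CPM (SD, n = 31). In the second, mtl-1 averaged 428 ± 327 CPM and mtl-2 averaged 200 ± 75.1 CPM. The first exceeded the second 2.11-fold for mtl-1 and 2.71-fold for mtl-2, each in 29 of 31 libraries. Yolk mRNA differed less, 1.26-fold, so that per yolk UMI the first cluster was still 1.56 times the second for mtl-1 and 1.80 times for mtl-2. Other intestinal genes did not follow one direction. The esterase gene ges-1 was at 0.565 times the second cluster's level and higher in 7 of 31 libraries. The actin gene act-5 was at 1.1 times (higher in 19 of 31), elt-7 at 1.08 times (17 of 31) and elt-2 at 0.955 times (19 of 31).

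Outside the intestine-like class, an unnamed cluster of 1474 nuclei had the highest level of elt-7, a GATA factor of the intestine, with 74.5 CPM. It passed too few intestine markers for a name. It held 354 ± 269 CPM of mtl-1 and 238 ± 105 CPM of mtl-2 (SD, n = 28). The lowest levels of both genes were in a germline-like cluster named by oocyte markers, with 68.2 ± 48.7 CPM of mtl-1 and 25.2 ± 18.6 CPM of mtl-2 (SD, n = 9), and yolk mRNA there was lowest as well, at 3891 CPM.

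Shares of nuclei with a UMI gave the same ranking of the 3 largest named classes. In intestine-like nuclei, 45.0% had an mtl-1 UMI and 39.6% an mtl-2 UMI, at a median depth of 1571 UMIs. After each nucleus was thinned to 500 UMIs, which left out 51 nuclei, these shares were 22.2% ± 13.5 and 15.3% ± 6.83 (SD, n = 31). Body wall muscle-like nuclei, at a median of 1958 UMIs, had shares of 30.6% and 26.2%, and thinned shares of 10.1% and 6.76% with 94 nuclei left out. Germline-like nuclei, at a median of 957.5 UMIs, had shares of 17.2% and 15.2%, and thinned shares of 7.82% and 5.77% with 229 nuclei left out. Muscle and germline are not among the known sites of either gene, and the part of free RNA in the muscle-like and germline-like shares was not tested.

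The 2 genes also met in the same nuclei. Among thinned intestine-like nuclei, 20.8% ± 9.09 of those with an mtl-1 UMI had an mtl-2 UMI, against 14.9% ± 5.56 of those without (SD, n = 19 libraries), and the share was higher with mtl-1 in 16 of 19 libraries. In body wall muscle-like nuclei the shares were 11.6% ± 6.32 and 6.73% ± 2.68, higher with mtl-1 in 15 of 19 libraries. In germline-like nuclei they were 8.62% ± 6.69 and 6.01% ± 2.29, higher with mtl-1 in 12 of 20 libraries. At this thinning the share was thus higher beside mtl-1 in most libraries of the first 2 classes, and less regularly in germline-like nuclei. With nuclei thinned to 1000 UMIs instead, this contrast between classes did not hold. The share was then higher with mtl-1 in 18 of 20 libraries for germline-like nuclei (17.9% against 10.8%). It was higher in 18 of 25 libraries for intestine-like nuclei and in 18 of 26 for body wall muscle-like nuclei. Only libraries with at least 20 nuclei with and 20 without an mtl-1 UMI entered. The intestine-like class joins 2 clusters that differ 2.11-fold in mtl-1 and 2.71-fold in mtl-2. The part of that difference in the shares was not tested.

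The level of each gene was then compared between groups over whole libraries, in which fewer cells of a type and less RNA per cell cannot be told apart. In F1 libraries of 0.05% ethanol lines, mtl-1 stood at 251 and 174 CPM in batch 2, and at 327, 328 and 258 CPM in batch 5. In F1 libraries of water lines it stood at 303 and 194 CPM in batch 2, and at 535, 208 and 258 CPM in batch 5. The values overlapped in both batches, with means of 268 ± 63.9 CPM in 0.05% ethanol lines and 300 ± 138 CPM in water lines (SD, n = 5 each). F1 libraries of 0.5% ethanol lines, all of batch 5, had 420, 178 and 222 CPM of mtl-1, against the 535, 208 and 258 CPM of the water libraries of that batch. Each lay below the water library of the same number, and only the 178 CPM of the shallow library lay below the span of the water libraries.

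In F3 libraries of 0.05% ethanol lines, mtl-1 stood at 157 and 98.3 CPM in batch 2, and at 144, 94.9 and 145 CPM in batch 4. In F3 libraries of water lines it stood at 104 and 150 CPM in batch 2, and at 155, 88.1 and 136 CPM in batch 4. The means were 128 ± 29.0 CPM in 0.05% ethanol lines and 127 ± 29.2 CPM in water lines (SD, n = 5 each). F3 libraries of 0.5% ethanol lines, all of batch 4, had 175, 64.9 and 143 CPM, against the 155, 88.1 and 136 CPM of the water libraries of that batch, whose span lay inside theirs.

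For mtl-2, F1 libraries of 0.05% ethanol lines had 220 and 186 CPM in batch 2, and 182, 78.1 and 95.8 CPM in batch 5. F1 libraries of water lines had 212 and 248 CPM in batch 2, and 164, 50.7 and 93.6 CPM in batch 5. F1 libraries of 0.5% ethanol lines had 195, 60.7 and 86.2 CPM in batch 5, against those 164, 50.7 and 93.6 CPM in water lines, with overlap. In each F1 group, all batch 5 values lay below all batch 2 values, where both batches were present. The share of all genes that separate in this way was not counted. Between these batches, 46.9% of genes were called at the water level in F1. The lowest value of each F1 group was in its shallow library.

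In F3 libraries of 0.05% ethanol lines, mtl-2 stood at 240 and 206 CPM in batch 2, and at 117, 123 and 153 CPM in batch 4. In F3 libraries of water lines it stood at 214 and 233 CPM in batch 2, and at 183, 82.1 and 108 CPM in batch 4. F3 libraries of 0.5% ethanol lines had 221, 64.2 and 160 CPM in batch 4, against those 183, 82.1 and 108 CPM in water lines. Again every batch 2 value exceeded the batch 4 values of its group, while ethanol and water values overlapped within each batch. How many of all genes separate by batch was not counted here either, and 19.4% were called between these batches in F3.

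**Figure D2:**
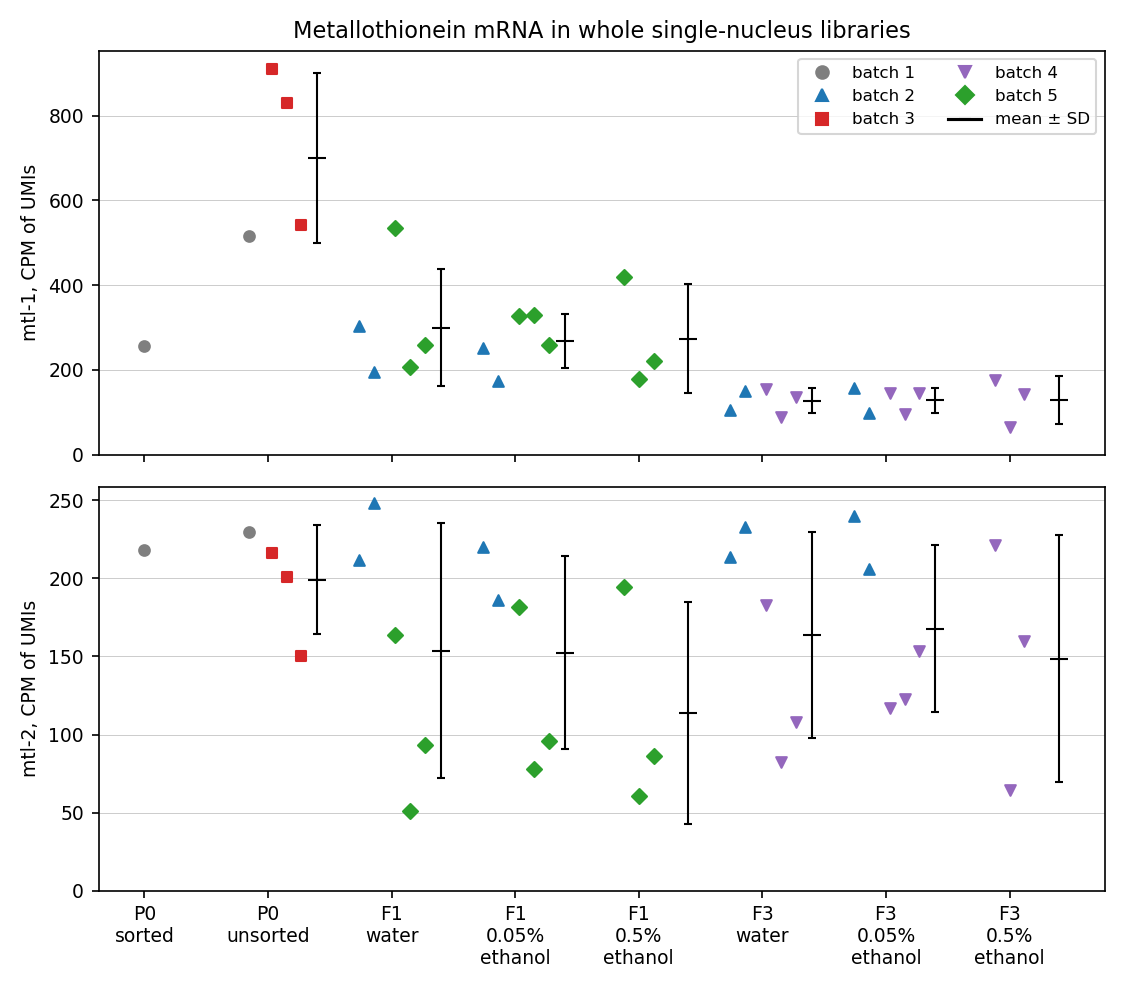
CPM of mtl-1 (top) and mtl-2 (bottom) in each of 31 whole libraries by group, with a marker for each batch and the mean ± SD beside it where a group has more than 1 library. F3 libraries hold 64.9 to 175 CPM of mtl-1 and F1 libraries 174 to 535 CPM, and for mtl-2 the batch 2 libraries lie above those of batches 4 and 5 in each group that has both. The share of all genes that separate by batch in this way was not counted.

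The study's own question, whether ethanol lines differ from water lines in F1 and F3, was asked of both genes with edgeR's quasi-likelihood test over all genes, within batches. In whole libraries, the log2 difference of mtl-1 was -0.22 (SE 0.27) for 0.05% ethanol against water in F1, and 0.03 (SE 0.27) in F3. For 0.5% ethanol the mtl-1 differences were -0.37 (SE 0.34) in F1 and -0.04 (SE 0.33) in F3. None passed an adjusted p of 0.05, the threshold for a call here. The log2 differences of mtl-2 were -0.01 (SE 0.33) and 0.06 (SE 0.32) for 0.05% ethanol, and -0.00 (SE 0.44) and 0.19 (SE 0.40) for 0.5% ethanol, in F1 and F3 in that order, with no call. The background of calls was 0% of 15105 genes in each of these comparisons.

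The same held for 0.5% against 0.05% ethanol, for the F3 against the F1 effect of each dose, and for intestine-like nuclei alone. Over all 8 such comparisons, both genes and both scopes, 32 log2 differences ran from -0.37 to 0.33 with a smallest unadjusted p of 0.28 by edgeR. All 32 intervals of 2 SE either side covered 0, in fits that do not model libraries of the same number deviating together. They differed in width: that of mtl-1 for 0.05% ethanol against water in F1 whole libraries ran from 0.589-fold to 1.25-fold, and the outermost bounds over all 32 were 0.468-fold and 2.51-fold. In a fit with a replicate block, the log2 difference of mtl-1 between 0.5% ethanol and water in F1 whole libraries was -0.38 (SE 0.19), whose interval of 2 SE did not cover 0, with an unadjusted p of 0.0561 and no call by edgeR. No other gene was called in these 8 comparisons either, by edgeR or by DESeq2, while 128 to 655 genes in whole libraries and 182 to 314 in intestine-like nuclei had an unadjusted edgeR p below 0.05. Water libraries are shared between the comparisons of both doses, which are therefore not independent.

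Within batches the direction was not steady. For 0.05% ethanol against water in F1 whole libraries, the difference of mean log2 CPM for mtl-1 was -0.31 in batch 2 and -0.05 in batch 5, and for mtl-2 it was -0.27 in batch 2 and 0.24 in batch 5. In F3 it was -0.01 in batch 2 and 0.05 in batch 4 for mtl-1, and -0.00 and 0.16 for mtl-2. All of these ranges overlapped.

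In intestine-like nuclei, which number 59 to 286 per library, the counts behind a value are smaller. There mtl-1 had 52 to 980 UMIs per library, and mtl-2 had 6 to 359, with the 6 in the shallow F1 library of the 0.5% ethanol line. In F1, mtl-1 averaged 865 ± 596 CPM in 0.05% ethanol lines, against 680 ± 164 CPM in water lines (SD, n = 5 each). The shallow library of the 0.05% ethanol lines had 1847 CPM, and without it the log2 difference was -0.09, against 0.21 with it, uncalled in both cases. In F3 it averaged 340 ± 96.1 CPM in 0.05% ethanol lines, against 300 ± 79.3 CPM in water lines (n = 5 each). In each generation the means differed by less than the larger of the SDs. The 0.5% ethanol lines had 999, 1227 and 551 CPM in F1, against 790, 841 and 725 CPM in water lines of batch 5. They had 382, 121 and 345 CPM in F3, against 430, 241 and 321 CPM in water lines of batch 4, so both pairs overlapped.

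For mtl-2 in intestine-like nuclei, F1 means were 362 ± 76.1 CPM in 0.05% ethanol lines and 345 ± 169 CPM in water lines (SD, n = 5 each). F3 means were 409 ± 199 CPM in 0.05% ethanol lines and 333 ± 93.4 CPM in water lines (n = 5 each). These means too differed by less than the larger of the SDs. The 0.5% ethanol lines had 548, 105 and 195 CPM in F1, against 311, 146 and 258 CPM in water lines of batch 5. They had 430, 115 and 333 CPM in F3, against 321, 250.5 and 245 CPM in water lines of batch 4, a wider span in both generations. In batch 2 of F3, the ethanol libraries had 502 and 333 CPM of mtl-1, above the 249 and 259 CPM of the water libraries, and 721 and 477 CPM of mtl-2, above 383 and 466 CPM. With 2 libraries on each side, and no count of how many of all genes separate in this way, that carries no test. The 3 libraries per group of batch 4 overlapped for both genes. The pooled log2 differences in F3 were 0.19 (SE 0.29) for mtl-1 and 0.24 (SE 0.28) for mtl-2 by edgeR, not called, against a background of 0% of 7188 genes.

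In fits without a replicate block, single libraries decided the sign of most of these values. Of 32 ethanol differences, 28 changed sign when some 1 library was left out, 14 of 16 for mtl-1 and 14 of 16 for mtl-2. The largest such moves were in mtl-2. Without the 0.5% ethanol F1 library numbered 1 in batch 5, which had 195 CPM of mtl-2, the log2 difference of 0.5% against 0.05% ethanol in F1 whole libraries was -0.63, against 0.01 with it. In intestine-like nuclei the difference of 0.5% ethanol from water in F1 was -0.69 without that library, against 0.19 with it. Neither value was called. Libraries numbered 1 in batch 5 also had the most mtl-2 in the 0.05% ethanol (182 CPM) and water lines (164 CPM). Leaving out 1 of them thus breaks a set of libraries that deviated together, which these fits do not model.

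**Figure D3:**
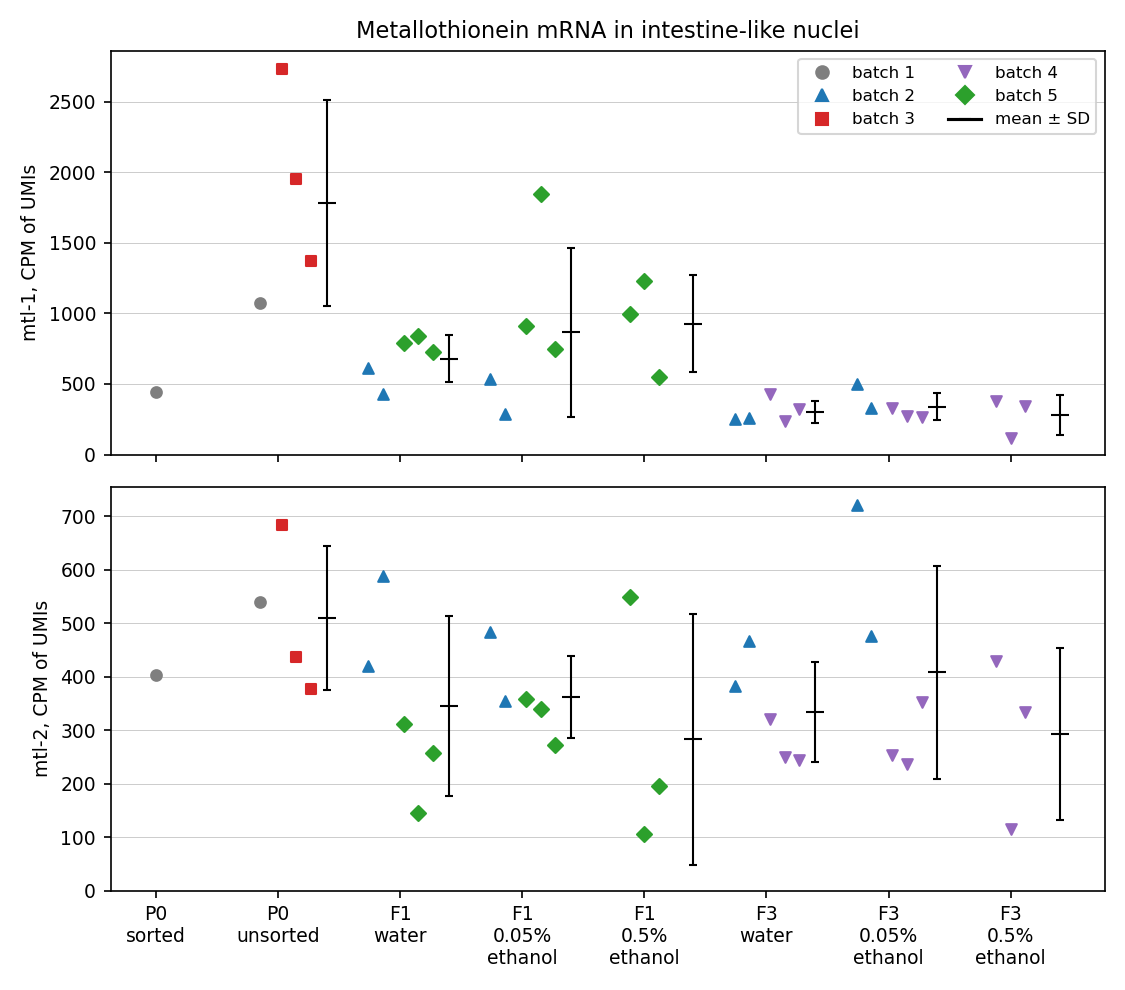
CPM of mtl-1 (top) and mtl-2 (bottom) in intestine-like nuclei of each library by group, with a marker for each batch and the mean ± SD beside it where a group has more than 1 library. Unsorted P0 libraries hold 1073 to 2729 CPM of mtl-1, F1 libraries 290 to 1847 CPM and F3 libraries 121 to 502 CPM, and the groups of 1 generation overlap.

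The generations were compared within batch 2, which alone holds both. The 4 F3 libraries had 98.3 to 157 CPM of mtl-1 and the 4 F1 libraries had 174 to 303 CPM, so the ranges did not overlap, with water and 0.05% ethanol libraries each lower in F3. The share of all genes whose ranges do not overlap was not counted, here or in the comparisons below. For mtl-2 the F3 libraries had 206 to 240 CPM and the F1 libraries 186 to 248 CPM, which overlapped. The log2 difference was -0.78 (SE 0.30, edgeR adjusted p = 0.202) for mtl-1 and 0.12 (SE 0.36, adjusted p = 0.918) for mtl-2. Neither was called, where 2.59% of all genes were called, 0.616% higher and 1.97% lower in F3. Whether the effect on mtl-1 differs from that on mtl-2 was not tested.

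Beside this difference, yolk mRNA stood at 20981 to 27006 CPM in F3 and 22441 to 34129 CPM in F1 of batch 2, and intestine-like nuclei made up 3.81% to 5.54% of F3 nuclei and 4.25% to 5.61% of F1 nuclei. The part of these shares in the difference was not tested. Per 1000 yolk UMIs, mtl-1 stood at 4.10 to 6.70 in F3 and 7.14 to 8.89 in F1, still without overlap, and mtl-2 at 8.59 to 10.2 in F3 and 6.21 to 9.14 in F1. In intestine-like nuclei of batch 2, mtl-1 had 249 to 502 CPM in F3 and 290 to 617 CPM in F1. The log2 difference there was -0.45 (SE 0.32, edgeR adjusted p = 0.583), not called, with a background of 0.403%. Between mean log2 values it was 0.11 in 0.05% ethanol lines, with overlapping ranges, and -0.92 in water lines, without overlap.

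Across all batches, the 13 F3 libraries had 64.9 to 175 CPM of mtl-1 (median 143) and the 13 F1 libraries had 174 to 535 CPM (median 258), with an overlap between 174 and 175 CPM. Batches 4 and 5 hold 1 generation each, so generation and batch cannot be told apart there. The ratio of mtl-1 to mtl-2 UMIs within a library does not depend on library size, and is used here between libraries, not to rank the 2 genes. It was 0.478 to 0.654 in the 4 F3 libraries of batch 2 and 0.781 to 1.43 in the 4 F1 libraries of batch 2, without overlap and untested. In batch 4, all F3, it was 0.773 to 1.26, and in batch 5, all F1, it was 1.80 to 4.20, or 1.80 to 3.27 without the 3 shallow libraries.

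In intestine-like nuclei the ratio was 0.556 to 0.698 in F3 and 0.725 to 1.46 in F1 of batch 2. It was 0.746 to 1.34 in the F3 libraries of batch 4 and 1.82 to 11.7 in the F1 libraries of batch 5, with 2.82 as the highest outside the 3 shallow libraries. In both scopes the F3 libraries of batch 2 were lowest and the F1 libraries of batch 5 highest among these 4 sets, while F1 of batch 2 and F3 of batch 4 overlapped.

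**Figure D4:**
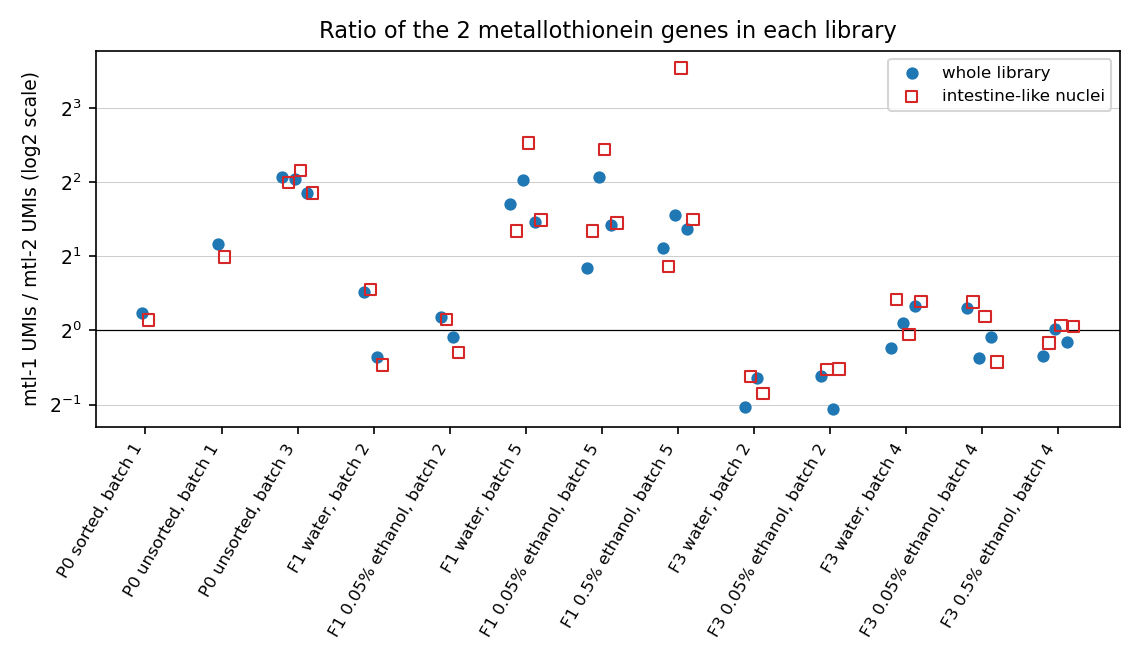
Ratio of mtl-1 to mtl-2 UMIs in each library, on a log2 scale, for whole libraries (filled circles) and intestine-like nuclei (open squares), by group and batch. F3 libraries of batch 2 lie lowest, with 0.478 to 0.654 in whole libraries, while P0 libraries of batch 3 lie at 3.61 to 4.21 and F1 libraries of batch 5 at 1.80 to 4.20.

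Untreated P0 worms were measured in batches that hold no other group, so their levels cannot be told apart from batch. The sorted library of batch 1 had 257 CPM of mtl-1 (exact Poisson 95% interval 245 to 270) and the unsorted one 515 CPM (496 to 535). For mtl-2 the sorted library had 218 CPM (207 to 229) and the unsorted one 230 CPM (217 to 243). The intervals cover counting error only, and 1 library of each kind allows no test. The 3 unsorted libraries of batch 3 had 910, 830 and 542 CPM of mtl-1 and 216, 201 and 150 CPM of mtl-2. The mtl-1 to mtl-2 ratio was 1.18 in the sorted library, 2.24 in the unsorted library of batch 1, and 3.61 to 4.21 in batch 3.

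Differences between batches at the water level estimate how far the 2 genes move with no difference in label. They come from the main fit, in which water and ethanol libraries enter together and each dose effect is common to batches. Ethanol libraries thus contribute to these differences. In F1, batch 5 against batch 2 gave a log2 difference of -1.09 for mtl-2 (SE 0.33, edgeR adjusted p = 0.00915) and of 0.33 for mtl-1 (SE 0.28, adjusted p = 0.338). Only mtl-2 was called, in a comparison that called 46.9% of all genes and 23.9% as lower, so the call does not set mtl-2 apart. Fitted on the water libraries of this comparison alone, mtl-2 gave -1.36 with an edgeR adjusted p of 0.0892 and was not called. In F3, batch 4 against batch 2 gave -0.81 for mtl-2 (SE 0.33, adjusted p = 0.0834) and 0.01 for mtl-1 (SE 0.28, adjusted p = 0.987), with a background of 19.4% of genes called (8.34% higher, 11% lower), and without the 3 shallow libraries mtl-2 was called at an adjusted p of 0.0384.

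In intestine-like nuclei, the F1 batch difference was 0.93 for mtl-1 (SE 0.30, edgeR adjusted p = 0.058) and -0.77 for mtl-2 (SE 0.30, adjusted p = 0.132), against a background of 6.07%. The F3 batch difference was -0.12 for mtl-1 (SE 0.29, adjusted p = 0.888) and -0.91 for mtl-2 (SE 0.29, adjusted p = 0.0585), against a background of 4.86%. None of these 4 was called. In the F3 water libraries alone, mean log2 CPM of mtl-1 was 8.40 in batch 4 and 8.12 in batch 2, opposite in direction to the fitted -0.12. Without the water F1 library numbered 1 in batch 2, or that numbered 1 or 3 in batch 5, mtl-1 was called in F1, with edgeR adjusted p of 0.0307, 0.0499 and 0.0482. The 2 genes had opposite signs in F1 in both scopes, and this contrast between them was not tested.

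**Figure D5:**
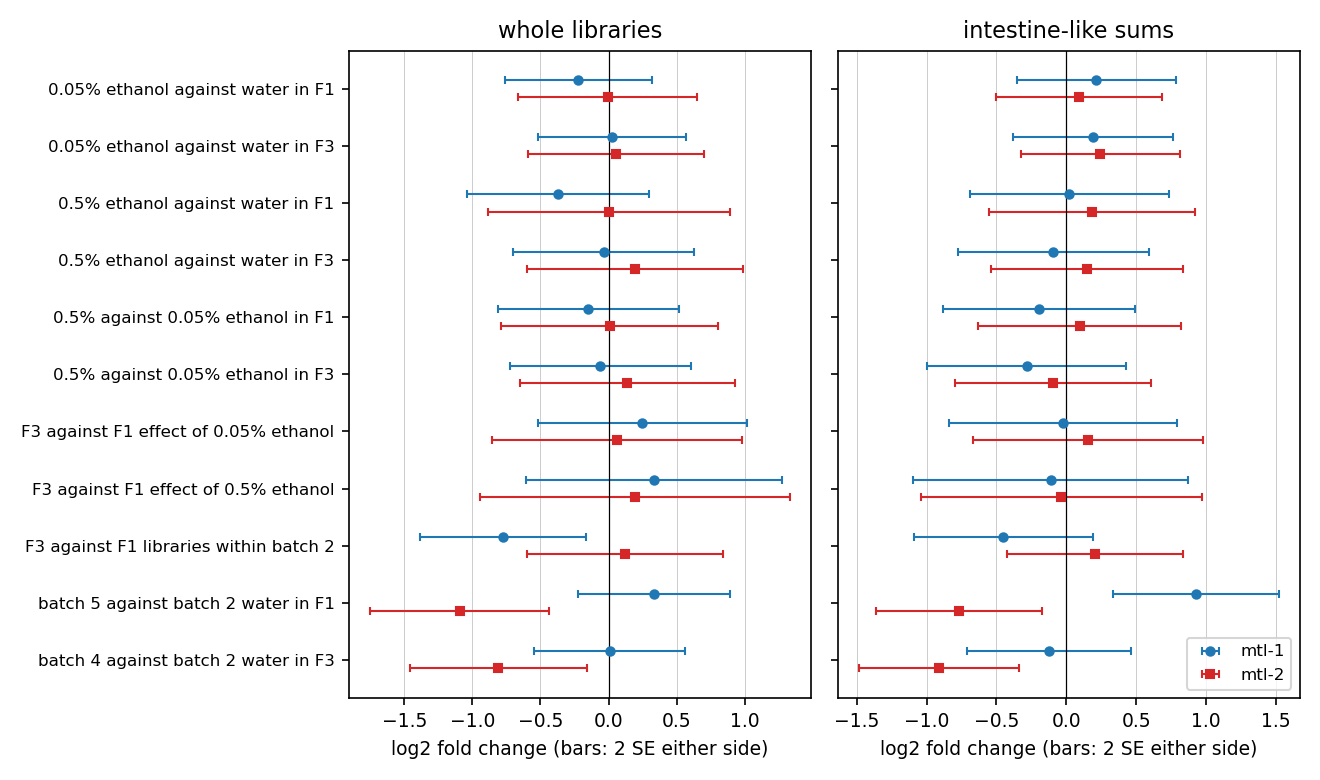
Log2 fold change of mtl-1 (circles) and mtl-2 (squares) in 11 comparisons, for whole libraries (left) and intestine-like sums (right), with bars of 2 SE either side. The 8 ethanol comparisons at the top all cover 0, while bars for mtl-1 in F3 against F1 of batch 2 (whole libraries), for mtl-1 in batch 5 against batch 2 (intestine-like sums) and for mtl-2 in both batch comparisons do not.

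Once the means of each group and batch were taken away, mtl-1 and mtl-2 varied together from library to library. Over the 26 water and ethanol libraries, Pearson's r of their log2 CPM was 0.815 (permutation p = 0.0006) and Spearman's rho was 0.705 (permutation p = 0.0035), two-sided, with labels permuted within groups and batches. That permutation takes the groups as independent, while libraries of the same number deviated together in F1. When replicate numbers were exchanged together over all groups of a batch and generation, an exact test with 144 exchanges chosen after the data were seen, p was 0.0139 for r and 0.0208 for rho, where the smallest p it can give is 0.00694. Without the 2 libraries farthest from the median of mtl-1, r was 0.745. Without the 3 shallow libraries, r was 0.815 (permutation p = 0.0029) and rho 0.738 (permutation p = 0.012) over 23 libraries, and 48 exchanges of numbers gave an exact p of 0.0417 for r and 0.0625 for rho. Both genes deviated to the same side in 18 of 26 libraries. These are not 26 separate observations, because the 2 libraries of each batch 2 group mirror each other once means are removed. The link between the 2 genes is 1 relation, computed with and without the shallow libraries, and the libraries share depth and tissue make-up with both genes. The yolk gene vit-2 had a lower r with mtl-1, 0.436, and with mtl-2, 0.216.

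Among 6832 genes with at least 20 CPM, mtl-2 was the gene most like mtl-1 across these 26 libraries, followed by the cytochrome P450 gene cyp-25A2 (0.783), C50F4.1 (0.773), pno-1 (0.766) and riok-3 (0.759). For mtl-2 the closest were pcbd-1 (0.828), C46G7.1 (0.826), the ribosomal protein gene rpl-41.2 (0.819), mtl-1 itself and atic-1 (0.807). Across the 28 clusters, the r of their log2 CPM was 0.808, which placed mtl-2 at rank 96 of 11734 genes for mtl-1, and mtl-1 at rank 455 for mtl-2. The genes most like mtl-1 there were the lectin gene clec-65 (0.947), asah-1 (0.936) and asm-3 (0.931), which are named for ceramidase and sphingomyelinase, the saposin-like gene spp-8 (0.928) and the yolk gene vit-5 (0.927). Those most like mtl-2 were Y51F10.7 (0.977), the fatty acid elongase gene elo-5 (0.976), the saposin-like gene spp-3 (0.974), the aspartyl protease gene asp-13 (0.969) and the lipase gene lipl-5 (0.965). All these are descriptions over clusters that share libraries.

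The wider metal-handling network was followed in 5 lists of 55 genes, of which 2 had no feature of that name. In whole libraries, the tested members were 13 of 16 metal-responsive and metal-binding genes, 14 of 14 zinc transporters and regulators, 9 of 9 regulators of the metallothionein genes, 9 of 10 FOXO-responsive genes and 5 of 6 manganese and iron transporters. In intestine-like nuclei, 10, 11, 8, 8 and 4 members were tested, in the same order of lists. No member was called in any of the 8 ethanol comparisons or between F3 and F1 in batch 2, in either scope. Over all genes, 0% were called in each ethanol comparison. Between F3 and F1 in batch 2, 2.59% were called in whole libraries and 0.403% in intestine-like nuclei. At these shares the lack of calls does not set the lists apart. For F3 against F1 in batch 2, 1 of 9 FOXO-responsive genes lay above 0 in whole libraries, with a list median of -0.43 on the log2 scale, against 0.03 over all genes. In intestine-like nuclei, 0 of 8 lay above 0, with a median of -0.65 against -0.02 over all genes. The other lists had medians between -0.13 and 0.06 in whole libraries and between 0.05 and 0.30 in intestine-like nuclei. The FOXO list also lay mostly below 0 for ethanol against water in whole libraries. There 1 of 9 genes lay above 0 for each dose in F1 (medians -0.19 and -0.33), and 2 of 9 for each dose in F3 (-0.12 and -0.11). The lean was thus not particular to F3 against F1, and the share of all genes above 0 was not counted.

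Among levels over 31 whole libraries, the ferritin genes ftn-2 and ftn-1, which store iron, averaged 651 ± 206 and 136 ± 92.6 CPM, and the copper-transporting ATPase gene cua-1 averaged 107 ± 26.5 CPM. Both ferritin genes were more abundant in intestine-like nuclei, with means of 1880 and 445 CPM. The zinc transporter genes zipt-7.2 and ttm-1 averaged 80.7 ± 10.7 and 56.8 ± 15.8 CPM, and mdt-15, a Mediator subunit gene in both the zinc and the regulator list, averaged 139 ± 29.1 CPM. Among regulators, daf-16 averaged 179 ± 60.7 CPM and the insulin receptor gene daf-2 averaged 150 ± 79.8 CPM. The FOXO-responsive genes icl-1, of the glyoxylate cycle, sip-1, a small heat shock protein gene, and the long noncoding RNA gene tts-1 averaged 1270 ± 339, 1067 ± 285 and 687 ± 475 CPM. The iron exporter gene fpn-1.1 averaged 21.1 ± 4.50 CPM, and the divalent metal transporter genes smf-1 and smf-3 averaged 11.8 ± 2.50 and 7.34 ± 2.37 CPM.

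Calls in the lists were limited to the batch comparisons at the water level, taken from the same fit. In F1 batch 5 against batch 2 whole libraries, where 46.9% of genes were called, cdr-7 (-0.82), mrp-1 (-0.50) and ftn-2 (-0.93) of the metal list were lower, and hmt-1 (0.30) and cua-1 (0.47) were higher, on the log2 scale. Of the zinc list, cdf-2 (-0.79) and zipt-7.2 (-0.37) were lower, and zipt-7.1 (0.39), zipt-3 (0.48), zipt-2.4 (0.78) and zipt-1 (0.44) were higher. Among regulators the intestinal factor gene elt-2 was lower (-0.83), while skn-1 (0.71), daf-16 (0.70), hsf-1 (0.55) and daf-2 (1.06) were higher. The catalase genes ctl-2 and ctl-1 of the FOXO list were called in opposite directions (-0.62 and 1.28), and the metal transporter gene smf-1 was lower (-0.69).

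In F3 batch 4 against batch 2 whole libraries, with a background of 19.4%, cdr-2 (0.57), cua-1 (0.36), zipt-3 (0.40), ttm-1 (0.65) and ctl-1 (2.38) were called, all higher in batch 4 on the log2 scale. In intestine-like nuclei, where 6.07% of 7188 genes were called in the F1 and 4.86% in the F3 batch comparison, the only list member called in each was ctl-1. Its 8 batch 2 libraries held 11 UMIs in all, against 3 to 42 in each batch 5 library and 15 to 66 in each batch 4 library.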

How the data were processed

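Nuclei of whole adult worms were measured in 31 libraries. The authors deposited raw UMI counts per gene and nucleus as sparse matrices, whose headers give software version 3.0.2. Per the submitters' processing notes, Cell Ranger and the genome build ce10 were used; filters and the use of strand are not given in the sources used here. All value columns were used, and 0 were left out. Gene positions come from Ensembl release 115 (WBcel235), where 99.8% of the feature identifiers matched, and no genome sequence was used here.

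Doublets were scored per library against simulated pairs of its own nuclei, and 2168 nuclei were removed at 0.8% per 1000 nuclei. The remaining 83012 nuclei were reduced to 30 principal components over 2000 variable genes, corrected for library, and clustered with leidenalg 0.10.2 on a graph of 15 neighbours at resolution 1. Of 28 clusters, 14 were named by marker lists. A name needed a mean log2 fold of at least 0.8, at least 0.5 above the next class, and at least 3 markers raised 1.5 times and seen in 10% of nuclei. These naming rules and the edge weights of the graph were set after the data were seen. Nuclei of 1 library are not replicates, so counts were summed per library, over all nuclei or over intestine-like nuclei. Class levels use libraries with at least 20 nuclei of the class.

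The sums of 26 water and ethanol libraries entered 1 edgeR 4.0.16 quasi-likelihood fit per scope (TMM, filterByExpr, R 4.3.3), with 1 intercept per batch and generation, and dose effects that were separate in F1 and F3 and common to batches. Adjusted p-values are Benjamini-Hochberg over all genes tested, 15105 in whole libraries and 7188 in intestine-like sums, and a call is an adjusted p below 0.05. Standard errors follow from edgeR's F statistic. Within-batch differences are of edgeR's log2 CPM. The procedure was tested on simulated data. Alternatives were DESeq2 1.42.0, other filters, clusterings, sets of libraries or nuclei, a replicate block, and leaving out each library in turn. For nuclei thinned to 1000 UMIs, the intestine-like share with mtl-2 was 32.5% beside an mtl-1 UMI and 24.8% without one. Likeness is Pearson's r of log2(CPM + 1) over genes with at least 20 CPM in 1 cluster or over the libraries, and the 5 closest genes are named. List members are named when called or among the 3 most abundant of their list. The 2 members and all lists were chosen with earlier results of these data known.

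Whether libraries with the same replicate number deviate together was examined in 6832 genes, as the correlation r of their log2 CPM once group and batch means were subtracted. In F1, r was 0.459 to 0.774 in the 5 pairs of 0.05% ethanol with water. The 3 pairs of 0.5% ethanol gave 0.604 to 0.746 with water in F1, 0.637 to 0.672 with 0.05% ethanol in F1, and 0.215 to 0.655 with water in F3. These numbers were taken as pairs, but only the fits with a replicate block model them, and the main fits do not. The remaining F3 pairs were not, with r of -0.069 to 0.337 between 0.05% ethanol and water and of 0.038 to 0.432 between the doses. The block joins libraries of the same number within each batch and generation, also in these remaining F3 pairs. What a replicate number stands for is not given in the labels.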

Additional observations from a re-analysis of the deposited data

How the results depend on the processing

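Each of 44 log2 differences (2 genes, 11 comparisons, 2 scopes) was recomputed under alternatives, 772 values in all. Of 432 values that leave out a library, 425 kept their direction and their side of the threshold, as did 330 of 340 others; a change of sign was counted only where a value lay beyond 1 SE, and 126 smaller ones, up to 0.35 in size, were not counted. None of the 616 ethanol values was called, with a smallest adjusted p of 0.813 by edgeR or DESeq2. With the replicate number as a block, 0 of 32 ethanol values were called, they ran from -0.39 to 0.28, and 5 changed sign.

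The called difference was mtl-2 in batch 5 against batch 2 of F1 whole libraries, which was -1.36 with an adjusted p of 0.0892 when only the libraries compared were fitted. In batch 4 against batch 2 of F3, mtl-2 was called at -0.81 without the 3 shallow libraries (adjusted p = 0.0384). In intestine-like nuclei, mtl-1 in batch 5 against batch 2 was called at 0.97 by DESeq2, 0.90 with no filter, 0.99 at clustering resolution 2 and 1.02 without shared barcodes, and ran from 0.87 to 1.12 as libraries were left out. There mtl-2 was called at -0.76 with no filter in F1, and at -0.85 with no filter and -1.02 at resolution 2 in F3. For mtl-1 in batch 4 against batch 2, the value turned to 0.33 when only the libraries compared were fitted. The main fit has 1 effect of 0.05% ethanol for both batches of F3. The difference of mean log2 CPM from water was 0.69 in batch 2 and -0.14 in batch 4. The causes were not tested.

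In fits without a replicate block, leaving out libraries moved mtl-2 from -0.63 to 0.37 for 0.5% against 0.05% ethanol in F1 whole libraries. In intestine-like nuclei it moved from -0.77 to 0.35 for that comparison, from -0.69 to 0.44 for 0.5% ethanol against water in F1, and from -0.49 to 0.84 for the F3 against F1 effect of 0.5% ethanol. The F1 library of 0.5% ethanol numbered 1 gave the outer values -0.63, -0.77, -0.69 and 0.84. Removing shared barcodes, shallow libraries and adding the elt-7-rich cluster were chosen after seeing the data. Shallow depth limits mtl-2 most, with 6 UMIs in intestine-like nuclei of 1 library.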
